A study of Mus musculus with 6 samples.

Results

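Mouse zinc finger genes named Zfp800 to Zfp999 were represented by 116 probe sets and 67 genes, of 18193 genes that a probe set of the arrays lists alone. The members were taken by symbol, from probe sets that the array annotation pairs with a single gene, and the brightest probe set stands for each gene. The range of numbers was itself chosen on these arrays, because probe sets of Zfp874a, Zfp945 and Zfp994 were known to be higher in mutant ganglia. All differences between the genotypes, and all counts of members past a threshold, are therefore given as a description and support nothing beyond these arrays. The numbers reflect the order in which the genes were named and mark no functional family.

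The Meis1cko mice carried a floxed allele of the homeobox gene Meis1, made in J1 embryonic stem cells, whose floxed exon was removed by Cre under the Nav1.8 promoter, a sodium channel promoter active in most nociceptors from before birth. Control mice are labelled only as controls, and their alleles are not given for the arrays. Total RNA came from whole cervical, thoracic and lumbar dorsal root ganglia (DRGs) at P60, with 1 array for each of 3 Meis1cko and 3 control mice. Mice of both sexes were used in the study, the sex of each array is not given, and the extraction is named as an RNeasy kit in the methods and as Trizol in the labels. Because nociceptors, other neurons, glia and connective tissue all gave RNA, fewer cells of a type and less RNA per cell cannot be told apart.

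Most genes with a Zfp name encode proteins with tandem C2H2 zinc fingers, each of which contacts a few bases of DNA. Many also carry a KRAB domain, which recruits the corepressor Trim28 and with it the histone methyltransferase Setdb1, and a main task of this class is the silencing of transposable elements. Mouse KRAB zinc finger genes arose largely by tandem duplication and lie in dense chromosome clusters, in which neighbouring genes have similar sequences.

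The deposited values are normalized intensities on a linear scale, and a log2 fold change is the mean of log2 values in Meis1cko minus that in control DRGs. The 6 array medians lay between 62.5 and 65.5. Meis1 itself had intensities of 66.0, 72.1 and 64.2 in Meis1cko DRGs and 110, 144 and 90.2 in control DRGs on its brightest probe set, a log2 fold change of -0.74 (SE 0.18), and its other probe sets had 0.13 and -0.16. Whether these probes lie in the removed exon was not analysed here. The replicate 3 array of each genotype stood apart, with a log2 difference of 3′ over 5′ Actb control probe sets of 0.44 in Meis1cko and 0.42 in control DRGs, against 1.23 to 1.66 on the other 4 arrays. All 8 measured sensory neuron markers lay above the median intensity. Fibroblast markers differed between the genotypes, with a summed intensity of 7590 to 9616 in Meis1cko and 10569 to 17256 in control DRGs over 6 genes, of which 2 were called lower. Macrophage markers summed to 502 to 919 in Meis1cko and 724 to 1239 in control DRGs, and 1 of 6 was called lower. The macrophage sums overlapped, and over all genes 0.456% were called lower. Skeletal muscle markers summed to 371 to 874 in Meis1cko and 229 to 2788 in control DRGs. Red blood cell markers summed to 212 to 344 in Meis1cko and 183 to 762 in control DRGs. Both of these lists overlapped and held no called gene. The dimmest fibroblast marker, Col1a1, was at 217, and the dimmest macrophage marker, Itgam, was at 16.4, below the 25th percentile of all probe sets (22.1). The part of these markers in the zinc finger values was not tested.

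The promoter windows of the genes that the comparison turns on are shown because neighbouring members with closely similar starts had very different values. RefSeq windows of build GRCm38.p6, from 250 bases before to 50 bases after a gene's start, were matched for 62 of the 67 members by gene identifier. Each window is written 5′ to 3′ on the strand of its gene, and capitals mark TGACAG or its reverse complement CTGTCA, the core motif bound by Meis homeodomain proteins. Zfp874a (chr13:67451575-67451874, minus strand) and its next gene Zfp874b (chr13:67484204-67484503, minus strand) are shown because their windows are closely alike, with 239 identical bases among 280 aligned. Zfp994 (chr17:22225565-22225864, minus strand), Zfp944 (chr17:22361351-22361650, minus strand) and Zfp945 (chr17:22867085-22867384, minus strand) are shown because each had a probe set that was higher in every Meis1cko mouse and all lie in 1 cluster of chromosome 17.
Zfp874a: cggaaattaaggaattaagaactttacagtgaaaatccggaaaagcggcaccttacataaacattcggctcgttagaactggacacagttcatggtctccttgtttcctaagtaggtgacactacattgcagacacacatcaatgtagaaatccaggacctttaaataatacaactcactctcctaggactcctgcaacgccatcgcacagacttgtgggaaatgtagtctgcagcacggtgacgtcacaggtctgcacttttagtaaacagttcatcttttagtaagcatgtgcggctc
Zfp874b: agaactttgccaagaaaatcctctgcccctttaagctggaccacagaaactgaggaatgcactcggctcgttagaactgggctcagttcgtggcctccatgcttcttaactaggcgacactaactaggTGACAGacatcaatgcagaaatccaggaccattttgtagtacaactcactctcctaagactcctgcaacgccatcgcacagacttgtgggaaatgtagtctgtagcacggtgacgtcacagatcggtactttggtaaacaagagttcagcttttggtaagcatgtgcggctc
Zfp994: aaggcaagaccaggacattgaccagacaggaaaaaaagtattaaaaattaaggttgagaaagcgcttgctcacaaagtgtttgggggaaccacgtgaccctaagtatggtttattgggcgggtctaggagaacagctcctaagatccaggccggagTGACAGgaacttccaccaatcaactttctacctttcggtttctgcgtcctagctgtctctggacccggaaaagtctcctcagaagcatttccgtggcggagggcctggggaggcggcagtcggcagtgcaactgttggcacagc
Zfp944: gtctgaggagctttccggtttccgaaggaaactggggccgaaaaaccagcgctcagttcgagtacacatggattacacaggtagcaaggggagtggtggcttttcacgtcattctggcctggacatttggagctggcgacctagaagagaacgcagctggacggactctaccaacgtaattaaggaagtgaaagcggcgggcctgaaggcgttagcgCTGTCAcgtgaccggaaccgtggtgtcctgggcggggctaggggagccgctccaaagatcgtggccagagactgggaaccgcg
Zfp945: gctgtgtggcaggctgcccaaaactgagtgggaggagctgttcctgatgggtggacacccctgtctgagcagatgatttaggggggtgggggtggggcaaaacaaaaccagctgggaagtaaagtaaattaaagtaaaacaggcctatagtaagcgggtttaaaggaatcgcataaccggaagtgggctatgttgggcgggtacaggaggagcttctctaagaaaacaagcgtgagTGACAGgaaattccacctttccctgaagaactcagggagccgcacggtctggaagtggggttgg

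The Zfp874a window held 0 matches to TGACAG on either strand, and those of Zfp874b, Zfp994, Zfp944 and Zfp945 held 1 each. In Zfp994 and Zfp945 the match runs on as TGACAGGAA, a longer string that was noticed after the windows had been read. Zfp944 starts beside Zfp758, which runs the other way, and their windows overlap by 162 bases.

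The intensities of Zfp874a were 151, 108 and 169 in Meis1cko DRGs and 18.4, 16.2 and 11.7 in control DRGs, and the genotypes did not overlap. The log2 fold change was 3.21 (SE 0.23). All 3 control values were under 20.8, the smallest 25th percentile of any array, where the signal is near the floor of the measurement, so the fold change is not exact. Zfp874a has 1 probe set, and no second one was there to compare.

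Zfp874b, the next protein-coding gene, had 258, 258 and 133 in Meis1cko DRGs and 199, 228 and 165 in control DRGs, a log2 fold change of 0.08 (SE 0.27). The genotypes overlapped, and the replicate 3 mouse was the lowest of each. The 79.7% likeness of the 2 windows thus went with log2 fold changes of 3.21 and 0.08.

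Of the 3 probe sets of Zfp945, only the second brightest separated the genotypes. The second brightest had intensities of 138, 170 and 131 in Meis1cko DRGs and 18.4, 25.3 and 26.5 in control DRGs, a log2 fold change of 2.66 (SE 0.18). Every Meis1cko value lay far above every control value. The control values lay around the 25th percentile of all probe sets (22.1), near the floor of the measurement, so this fold change is not exact. With an offset of 16 on the intensities it was 2.045. The name of this probe set ends in _a_at, which on this type of array marks probes shared by transcripts of a single gene. The brightest probe set of Zfp945, which stands for the gene in all counts, had 78.8, 69.0 and 62.3 in Meis1cko DRGs and 87.6, 77.8 and 77.3 in control DRGs, with a log2 fold change of -0.21 (SE 0.13). The third had -0.08 (SE 0.21), and the mean over the 3 probe sets was 0.79. On these last probe sets the mice of the genotypes overlapped.

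Zfp994 had 290, 296 and 196 in Meis1cko DRGs and 95.3, 86.3 and 84.6 in control DRGs on its single probe set. The lowest Meis1cko value was more than the highest control value by a wide margin, and the log2 fold change was 1.53 (SE 0.18). All 6 values lay above the median of all probe sets (64.8).

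Zfp944 again depended on the probe set. Its brightest had 114, 123 and 180 in Meis1cko DRGs and 64.6, 104 and 149 in control DRGs, which overlap, with a log2 fold change of 0.45 (SE 0.32). Without control replicate 3 it was 0.74 and passed the thresholds for a call. The second probe set of Zfp944 had 146, 174 and 126 in Meis1cko DRGs and 73.4, 88.5 and 74.8 in control DRGs, with no overlap and a log2 fold change of 0.91 (SE 0.16). The third, a dim one, had 0.19 (SE 0.25), and a further probe set that the annotation gives to both Zfp944 and Zfp942, which was not counted, had 0.35 (SE 0.15).

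The lower members were Zfp983 and Zfp939. Zfp983 had 216, 174 and 119 in Meis1cko DRGs and 285, 288 and 238 in control DRGs, a log2 fold change of -0.71 (SE 0.22). The genotypes did not overlap, and the replicate 3 mouse was the lowest in each. Its other probe sets had -0.22 and -0.44, with overlap. Without Meis1cko replicate 3 the log2 fold change was -0.48, under the fold threshold of 1.5.

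Zfp939 had 47.5, 123 and 76.9 in Meis1cko DRGs and 171, 138 and 129 in control DRGs on its single probe set. The log2 fold change was -0.92 (SE 0.32), and the Meis1cko mice varied more than the difference between the nearest mice of the genotypes. Without Meis1cko replicate 1 it was -0.58, and without control replicate 1 it was -0.80, and in neither case did it pass the thresholds.

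**Figure D1:**
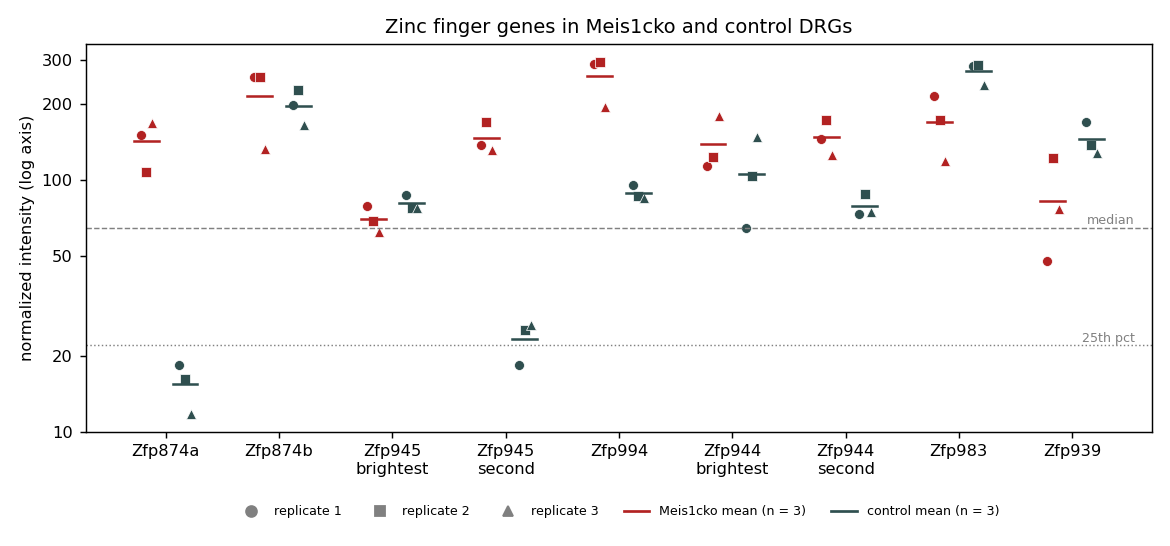
Normalized intensity (log axis) of the brightest or second brightest probe set of 7 zinc finger genes in each Meis1cko mouse (red, left of each pair) and control mouse (dark, right), with symbols for the replicate number and bars for means of 3 mice; grey lines mark the median (64.8) and the 25th percentile (22.1) of all probe sets. The mice separate for Zfp874a, Zfp994, Zfp983, Zfp939 and the second probe sets of Zfp945 and Zfp944, and mix for Zfp874b and the brightest probe sets of Zfp945 and Zfp944.

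A gene was called higher or lower where the fold change was over 1.5 and the p of limma under 0.05, the thresholds of the study's methods with limma in place of the t-test. By this rule 2 of the 67 members were higher (Zfp874a and Zfp994) and 2 were lower (Zfp983 and Zfp939), 2.99% in each direction, beside 0.324% higher and 0.456% lower over all 18193 genes. Since the range of numbers was chosen on Zfp874a and Zfp994, nothing is read from the share. Without Meis1cko replicate 3 the higher calls numbered 5 (with Zfp820, Zfp867 and Zfp995) and without control replicate 3 they numbered 4 (with Zfp867 and Zfp944), and the lower calls numbered 1 without Meis1cko replicate 1, Meis1cko replicate 3 or control replicate 1. Setting Zfp874a, Zfp945 and Zfp994 aside, 0 of the other 64 members were higher and 2 were lower, with log2 fold changes between -0.92 and 0.54, and 3 of these 64 had a p under 0.05 before adjustment, beside 2.56% of all genes.

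Intensities of all Meis1cko mice lay above those of all control mice for 5 members, beside 3.12% of all genes, and below them for 2 members, beside 3.82% of all genes. The higher ones besides Zfp874a and Zfp994 were Zfp830, Zfp867 and Zfp871, and the lower ones were again Zfp983 and Zfp939. Zfp830, which is needed in early mouse embryos, had 227, 249 and 255 in Meis1cko DRGs and 188, 208 and 220 in control DRGs, a log2 fold change of 0.25 (SE 0.12). Its 3 other probe sets had 0.12, 0.06 and -0.12, with overlap. Zfp871 had 1781, 1811 and 1673 in Meis1cko DRGs and 1657, 1587 and 1513 in control DRGs, a log2 fold change of 0.15 (SE 0.11). In both genes the gap between the genotypes was narrower than the spread within either.

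Zfp867 lay just outside the thresholds and is named for that reason, after its values had been seen. It had 84.9, 61.2 and 47.46 in Meis1cko DRGs and 39.6, 42.6 and 47.41 in control DRGs, a log2 fold change of 0.54 (SE 0.21), and replicate 3 of the genotypes nearly coincided. Without Meis1cko replicate 3 it was 0.74, without control replicate 3 it was 0.61 and without both it was 0.81, and it passed in each case. Zfp983 at -0.71 was the called member closest to the fold threshold.

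At an adjusted p under 0.05, limma passed 2 of the 116 member probe sets, the single one of Zfp874a and the second one of Zfp945, among 0.0155% of all 45037 probe sets (7 in number). Both are probe sets on which the range of numbers was chosen, as is that of Zfp994, so these passes are a description and nothing is read from the shares. With the replicates of the same number paired, Zfp994 passed too, which made 3 member probe sets among 0.0822% of all (37 in number). Single arrays changed the number of member probe sets past the adjusted threshold. It was 0 without Meis1cko replicate 1, control replicate 1 or control replicate 2, 1 without Meis1cko replicate 2 and 3 without Meis1cko replicate 3. An offset of 16 on the intensities left 0. The log2 fold changes with 1 array left out lay between 3.02 and 3.40 for Zfp874a and between 2.49 and 2.76 for the second probe set of Zfp945. Zfp994 was called higher with and without the pairing, and its log2 fold change of 1.53 was the same in both fits. Only its pass of the adjusted threshold depended on the pairing.

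Across the 67 genes the middle of the distribution lay close to 0. The median log2 fold change was 0.01, with quartiles of -0.05 and 0.21, beside medians of 0.01 over 264 Zfp genes with a lower number and -0.01 over all genes. Of the members, 37 were above and 30 below 0, and 44 of the 67 were within 0.2 of it. Within 0.2 lay 209 of the 264 Zfp genes with a lower number and 15096 of all 18193 genes. Their upper quartiles were 0.11 and 0.08, below the 0.21 of the members, so the members spread more widely, mainly upward. The range of numbers was chosen on raised members, and nothing is read from this spread. Around the lower limit of the range, Zfp800 and Zfp804a just inside had log2 fold changes of 0.14 and 0.33, and Zfp790 and Zfp799 just outside had 0.19 and 0.08.

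**Figure D2:**
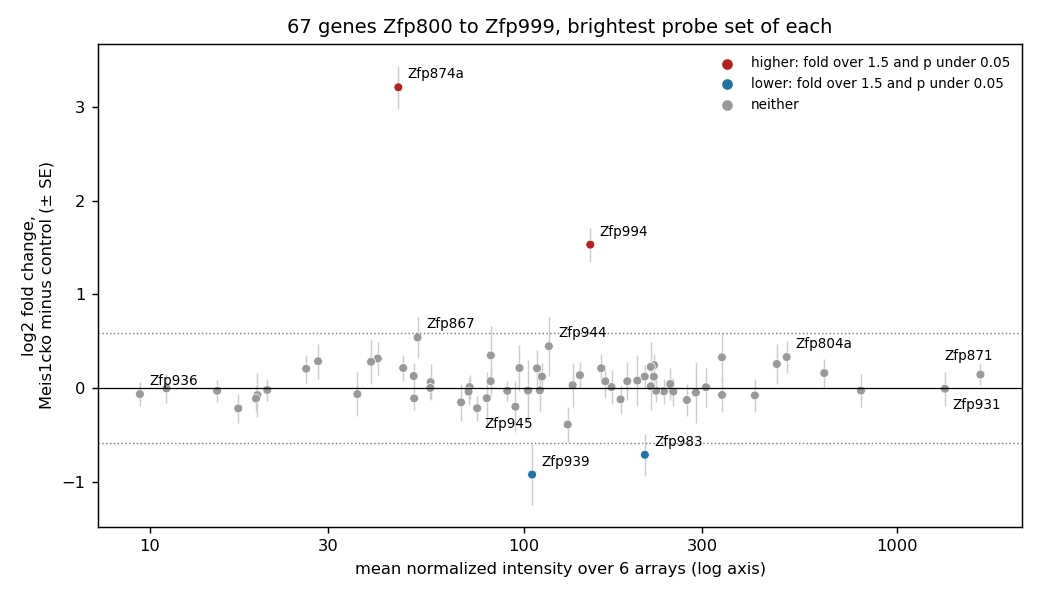
Log2 fold change (Meis1cko minus control, with SE, 3 mice per genotype) of the 67 genes against the mean normalized intensity of the brightest probe set over 6 arrays (log axis), with dotted lines at a fold of 1.5. Apart from Zfp874a at 3.21 and Zfp994 at 1.53, all members lie between -0.92 and 0.54, and the bright members Zfp871 and Zfp931 lie at 0.15 and -0.01.

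Most members gave a signal in the ganglia. The brightest probe sets of 48 members lay at or above the median of all probe sets (64.8), 12 lay between it and the 25th percentile (22.1) and 7 lay below the 25th percentile. The signals of different probe sets depend on their probes and do not rank the amounts of transcript. Zfp871, Zfp931, Zfp955a, Zfp946 and Zfp804a had the brightest probe sets. Zfp931 had 1668, 1304 and 1098 in Meis1cko DRGs and 1176, 1379 and 1488 in control DRGs, with full overlap and a log2 fold change of -0.01 (SE 0.18). Zfp955a had 918, 856 and 632 in Meis1cko DRGs and 852, 872 and 703 in control DRGs, a log2 fold change of -0.02 (SE 0.18), and Zfp946 had 0.16 (SE 0.15). The dimmest were Zfp936, Zfp972 and Zfp819, a gene known from testis and pluripotent cells, with 8.43 to 16.4 on all arrays of both genotypes and log2 fold changes between -0.06 and -0.00225.

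Members with a known role elsewhere did not separate the genotypes, apart from Zfp830. Zfp804a, the mouse counterpart of a human gene associated with schizophrenia, had 615, 629 and 471 in Meis1cko DRGs and 413, 530 and 417 in control DRGs. Its log2 fold change was 0.33 (SE 0.17), with overlap, and its second probe set had 0.23 (SE 0.45). Zfp809, which silences murine leukemia viruses in mouse embryonic stem cells, had 392, 308 and 243 in Meis1cko DRGs and 360, 311 and 257 in control DRGs, a log2 fold change of 0.01 (SE 0.21). Zfp932, which binds endogenous retroviruses, had 510, 401 and 323 in Meis1cko DRGs and 434, 418 and 427 in control DRGs, with -0.08 (SE 0.18). Both retrovirus regulators thus had a wide spread among the Meis1cko mice and no difference beyond it. Zfp827, whose human counterpart acts at telomeres, had 0.08 (SE 0.20). Zfp800, with 7 probe sets the most of any member, had 0.14 (SE 0.14) on its brightest and between -0.02 and 0.45 on the others, with overlap on each. Zfp804b has no probe set of its own here.

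Of the 67 genes 36 had 1 probe set, and in the 31 with several the probe sets could be compared. The log2 fold changes of a gene's probe sets spanned less than 0.5 for 28 of the 31, with a median span of 0.17. They had a common sign in 12 genes and mixed signs in 19. The span was over 1 in 1 gene, Zfp945, at 2.87, and was 0.97 in Zfp991 and 0.71 in Zfp944. In Zfp991 it came from 1 array, since the second probe set had 122, 32.2 and 36.8 in Meis1cko DRGs and 23.7, 23.5 and 47.9 in control DRGs, and its log2 fold change of 0.81 had an SE of 0.53. The brightest probe set of Zfp991 had -0.13 (SE 0.17). Names ending in _x_at or _s_at mark probes that can match related genes, and 9 and 1 of the 116 member probe sets had them, 6 of them as the brightest of a gene. None of the probe sets of Zfp874a, Zfp945, Zfp994, Zfp944, Zfp983 and Zfp939 had such a name.

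**Figure D3:**
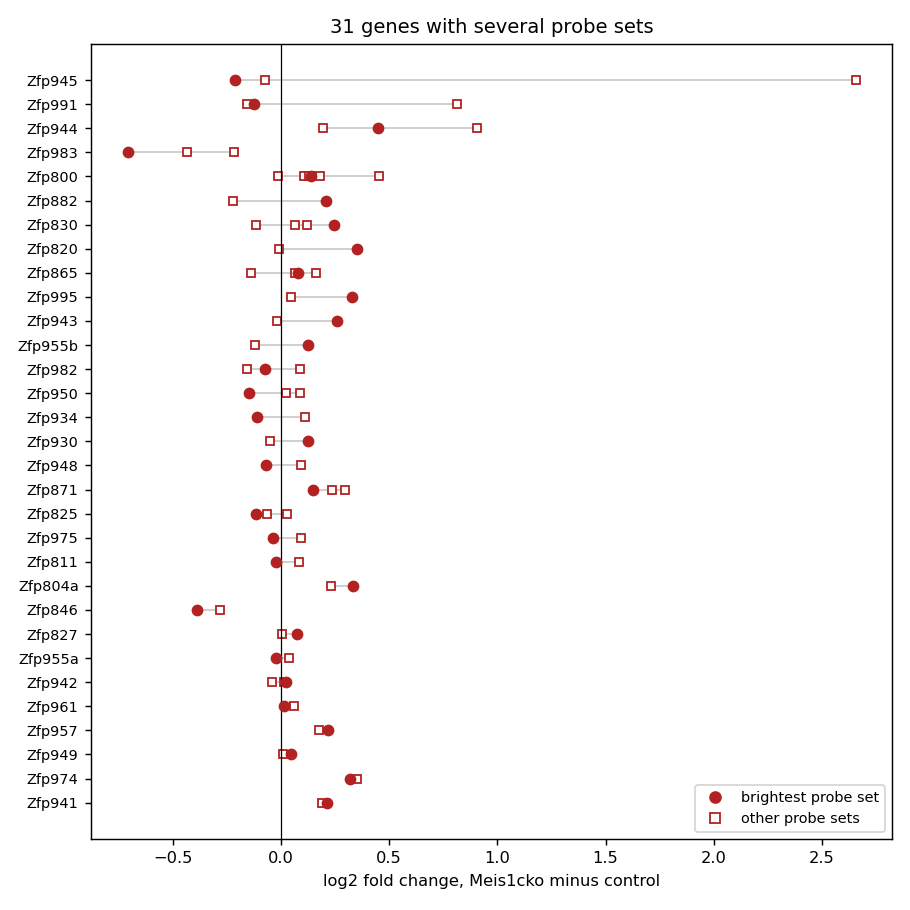
Log2 fold change (Meis1cko minus control) of every probe set of the 31 genes with several, with the brightest filled and the others open, ordered by span. Zfp945 spans 2.87 between -0.21 on the brightest and 2.66 on the second, and 28 genes span less than 0.5.

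The genes lay on 14 chromosomes, with 17 on chromosome 17, 10 each on chromosomes 7 and 8, and 6 on chromosome 13. In the gene order of build GRCm38.p6, members with at most 20 other protein-coding genes between them were joined into clusters. This gave 12 clusters with 43 members and left 24 members alone. Of the 4 called members, 3 lay in clusters. Zfp994 and Zfp983 shared a cluster on chromosome 17, where they differed in opposite directions, Zfp874a lay in a cluster on chromosome 13, and Zfp939 lay alone on chromosome 7. With at most 10 or 50 genes between members, the number of called members that shared a cluster was again 2. The other 10 clusters held 0 called members, among them the second cluster of chromosome 17 with 6 members (Zfp871, Zfp811, Zfp870, Zfp952, Zfp955a and Zfp955b), whose log2 fold changes lay between -0.02 and 0.29. Meis1 lies on chromosome 11 with 3 members, Zfp830, Zfp867 and Zfp879, and their distance from Meis1 was not analysed. Zfp830 and Zfp867 were higher in every Meis1cko mouse, beside 3.12% of all genes, and Zfp879, at -0.02, was not. Neither Zfp830 nor Zfp867 was called, and nothing is read from so few members.

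The chromosome 17 cluster holds Zfp948, Zfp983, Zfp820, Zfp995, Zfp942, Zfp943, Zfp994, Zfp944, Zfp946 and Zfp945 in this order, and spans 19 protein-coding genes. Of its 10 members 7 had a log2 fold change above 0, and the median was 0.21, beside 0.01 over the 67 genes. The values were uneven along the cluster. Zfp943, close before Zfp994, had 648, 538 and 403 in Meis1cko DRGs and 496, 473 and 350 in control DRGs, a log2 fold change of 0.26 (SE 0.22). Zfp942, its neighbour, had 0.02 (SE 0.25), Zfp948 had -0.07 (SE 0.18), Zfp820 had 0.35 (SE 0.31) and Zfp995 had 0.33 (SE 0.25), all with overlap. Without Meis1cko replicate 3, Zfp820 at 0.68 and Zfp995 at 0.59 passed the thresholds.

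Genes of the same cluster with other names were not all alike either. Zfp758, between Zfp944 and Zfp946, was called higher, with 321, 397 and 269 in Meis1cko DRGs and 170, 219 and 192 in control DRGs, a log2 fold change of 0.75 (SE 0.18). Zfp760 and Zfp229, between Zfp983 and Zfp820, had -0.33 (SE 0.26) and 0.37 (SE 0.28), with overlap. Zfp52, just before the cluster, was called higher as well, with 216, 214 and 157 in Meis1cko DRGs and 109, 110 and 94.0 in control DRGs, a log2 fold change of 0.89 (SE 0.16). In both called genes no Meis1cko value fell among the control values. After Zfp945, the next measured genes Zfp40 and Zfp213 had 0.08 and 0.10.

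In the chromosome 13 cluster, Zfp953 had 53.5, 48.7 and 57.3 in Meis1cko DRGs and 55.6, 45.4 and 45.2 in control DRGs, a log2 fold change of 0.13 (SE 0.14). Zfp429, between Zfp953 and Zfp874a, was called higher, with 42.7, 31.0 and 38.8 in Meis1cko DRGs and 27.2, 19.3 and 24.5 in control DRGs, a log2 fold change of 0.66 (SE 0.18). Its values were dim, below the median of all probe sets in every mouse. Zfp58, after Zfp874b, had -0.32 (SE 0.20). Around Zfp939 on chromosome 7, Plekhf1, Zfp619 and Vstm2b had log2 fold changes of -0.01, 0.13 and 0.12. Pop4, which encodes a subunit of RNase P, had -0.58 (SE 0.13) and was lower without overlap, beside 3.82% of all genes. Between Zfp939 and Pop4 lie 13 other protein-coding genes, and 14 lie between it and Plekhf1, against 1 for Zfp619 and 3 for Vstm2b.

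**Figure D4:**
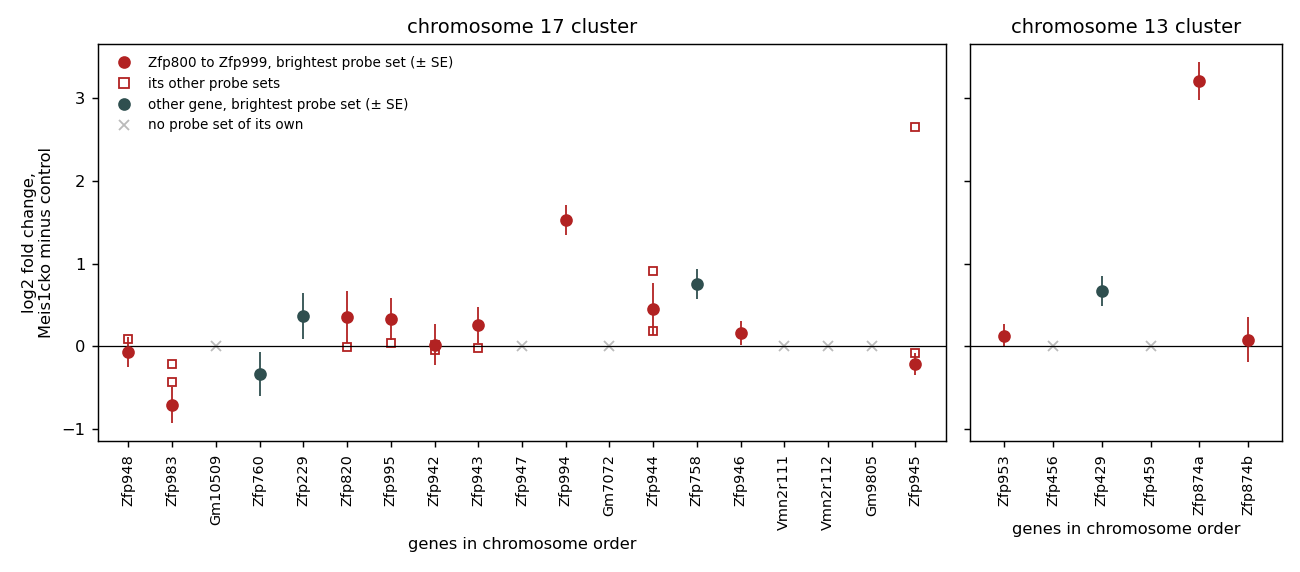
Log2 fold change (Meis1cko minus control) along the clusters of chromosome 17 and chromosome 13, with protein-coding genes in chromosome order, members in red (filled, brightest probe set with SE; open, its other probe sets), other genes dark, and crosses for genes without a probe set of their own. Zfp994 at 1.53 lies above its neighbours Zfp943 at 0.26 and Zfp944 at 0.45, and Zfp874a at 3.21 lies above Zfp429 at 0.66 and Zfp874b at 0.08.

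Among the 264 Zfp genes with a lower number, 4 were called higher and 0 lower, beside 0.324% and 0.456% of all genes, and 6 had a p under 0.05 in limma, beside 2.56%. The 4 were Zfp52, Zfp758 and Zfp429, which lie in or beside the clusters of Zfp994 and Zfp874a, and Zfp386 on chromosome 12. Zfp386, named after its values had been seen, had 288, 300.4 and 227 in Meis1cko DRGs and 180.2, 169 and 141 in control DRGs, a log2 fold change of 0.73 (SE 0.16). With the replicates paired, the same counts of 4 and 0 were found.

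Matches to TGACAG were present in the windows of 27 of the 62 members with a window (43.5%). The share was 24.9% over 249 Zfp genes with a lower number and 21.6% over all 27025 genes of the table, and per window it was 44.7%, 22.4% and 19.2%. In the chromosome 17 cluster 8 of 10 members held a match, with Zfp983 and Zfp946 as the exceptions, and outside it 19 of 52 did. The windows of Zfp942 and Zfp943 overlap by 194 bases, and those of Zfp942 and Zfp944 have 91.3% of bases in common. The 8 are therefore not all separate sequences, and nothing is read from their share. Among the called members, Zfp874a and Zfp983 held 0 matches, Zfp994 held 1 and Zfp939 held 2. TGACAGGAA was found in 6 members (Zfp980, Zfp958, Zfp869, Zfp938, Zfp994 and Zfp945), 9.68% of those with a window, beside 1.20% and 0.703%. The string was noticed in the windows of Zfp994 and Zfp945, on which the range of numbers was also chosen, so nothing is read from this share. The other members with the string, Zfp980, Zfp958, Zfp869 and Zfp938, had log2 fold changes of -0.21, 0.03, 0.07 and -0.04. Whether a Meis protein binds any of these windows was not measured.

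**Figure D5:**
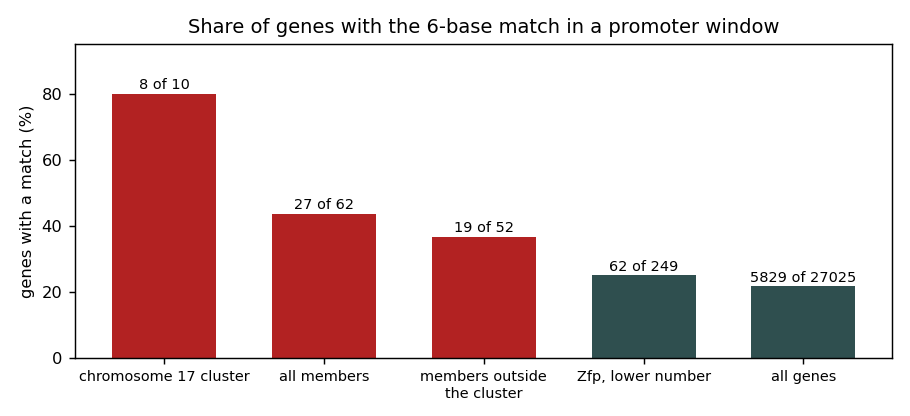
Share (%) of genes with TGACAG or its reverse complement in a promoter window, for members (red) and comparison sets (dark), with counts above the bars, which start at 0. The share is 80% in the chromosome 17 cluster, where some windows overlap or are closely alike, 43.5% over all members and 21.6% over all genes of the table.

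Likeness between windows was highest for members of the same cluster. The windows of Zfp955a and Zfp955b were identical, those of Zfp942 and Zfp944 had 91.3% of bases in common and those of Zfp979 and Zfp980 had 91%. Over all pairs of members the median was 53.7% for 75 pairs in 1 cluster and 51.7% for 1816 other pairs. Zfp955a and Zfp955b had log2 fold changes of -0.02 and 0.13, Zfp942 and Zfp944 of 0.02 and 0.45, and Zfp979 and Zfp980 of -0.20 and -0.21. The SEs of Zfp942 and Zfp944 were 0.25 and 0.32, so their log2 fold changes are not told apart. Of the pairs named, only Zfp874a and Zfp874b, with 79.7% likeness, had log2 fold changes far apart, at 3.21 and 0.08.

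Member signals were lower on the replicate 3 arrays of both genotypes. The median intensity of the 67 genes was 146, 123 and 101 in Meis1cko mice and 127, 125 and 95.5 in control mice, lowest on the replicate 3 array in each. For 28 of the 67 members (41.8%) the replicate 3 mouse was the lowest in both genotypes, beside 58.7% of Zfp genes with a lower number and 37.1% of all genes. With both replicate 3 arrays left out, Zfp874a, Zfp994 and Zfp867 were called higher and Zfp939 lower, and Zfp983 at -0.57 was not called. The part of the 3′ to 5′ difference in these values was not tested.

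The partners of KRAB zinc finger proteins were described from a list of 43 symbols for the Trim28 and Setdb1 complex, heterochromatin proteins, DNA methylation and the HUSH complex, of which 38 were measured. None passed the fold of 1.5 and p of 0.05, with 0 at a p under 0.05 in limma and 0 called in the methods' t-test, counts that say little of so short a list beside 0.324% higher, 0.456% lower and 2.56% at that p over all genes. Their median log2 fold change was 0.01. The values lay between -0.23 and 0.40. Some genes were dim on all arrays, such as Uhrf1 at 23.0 to 30.9 and H3f3b at 34.9 to 43.4. H3f3a at 44.4 to 58.7 and Zfp57 at 40.7 to 52.8 also lay below the median of all probe sets (64.8). For such genes a lack of difference says little. Tasor, which encodes a core subunit of the HUSH complex, had 213, 195 and 138 in Meis1cko DRGs and 153, 137 and 120 in control DRGs, a log2 fold change of 0.40 (SE 0.19), with overlap. Without Meis1cko replicate 3 it was 0.59 and passed. Atf7ip, a partner of Setdb1, had -0.23 (SE 0.13), Pphln1, of the HUSH complex, had -0.20 (SE 0.13), and Zfp57, which maintains methylation at imprinted genes, had 0.15 (SE 0.13).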

How the data were processed

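RNA of DRGs from 3 Meis1cko and 3 control mice was hybridized to Affymetrix mouse genome arrays (1 colour, 1 array per mouse). The deposited values are intensity values that the authors normalized, on a linear scale, after the Affymetrix image software and GeneSpring, and the method of summarising and normalizing is not given in the sources used here. They were taken to log2 with values under 1 set to 1, and 64 control probe sets of 45101 were left out. Of the rest, 34945 are paired with 1 gene, 932 with several and 9160 with none, and 9 that list a member with other genes were set aside. The fit used limma 3.58.1 (lmFit, eBayes; R 4.3.3), tested on simulated data, with Benjamini-Hochberg adjustment over 45037 probe sets. The smallest exact permutation p of 3 arrays against 3 is 0.1, and the number of arrays limits the precision.

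The main fit did not pair the arrays, and the SEs, p values and calls are unpaired unless a pairing is stated. A fit with the replicate number as a block was an alternative, although the labels do not say what the numbers stand for. Deviations from the group means correlated by 0.424, 0.535 and 0.766 between arrays of replicate number 1, 2 and 3. Arrays of numbers 1 and 2 also correlated with each other, by 0.337 and 0.319, and negatively with number 3, so pairs 1 and 2 are less distinct than pair 3.

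All 67 symbols equal those of RefSeq (GRCm38.p6), whose gene table lists 95 genes in the range, 28 of them without a probe set of their own. It was used for gene order only, and promoter windows came from RefSeq. Window likeness is the share of the 300 bases identical in a pairwise alignment (Biopython 1.88). The genes named are members past the thresholds or with a probe set past the adjusted threshold, non-overlapping members at or above the median (up to 5 per direction by p), the 5 brightest and 3 dimmest, cluster mates and measured neighbours of the called ones, members with known roles, 4 silencing genes by p, and Meis1. The members and lists were chosen with earlier results of these data known. The alternatives were the replicate block, quantile normalization, centring on the 75th percentile, an offset of 16, eBayes with a trend, a filter at the 25th percentile, the methods' t-test, mean probe sets, leaving out _x_at probe sets, other cluster gaps and leaving out arrays.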

Additional observations from a re-analysis of the deposited data

How the results depend on the processing

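No called member turned its direction under the alternatives run for it, while Zfp874b, which was not called, ranged from -0.08 to 0.40 and Zfp945, at -0.21 on its brightest probe set, was at 0.79 and called higher with the mean of its probe sets. Higher calls numbered 2 or 3 in all fits that kept every array, and 2 to 5 with 1 array left out, with 5 without Meis1cko replicate 3 and 4 without control replicate 3. Lower calls numbered 0 in the methods' t-test (Zfp983 and Zfp939 lost), 1 with both replicate 3 arrays left out, 1 with the mean of the probe sets of a gene, and 1 to 2 with 1 array left out. The member probe sets past the adjusted threshold numbered 0 with an offset of 16, 3 with the replicate block, and 0 to 3 with 1 array left out. The replicate block left the same 2 higher and 2 lower members, and among member probe sets it changed only the pass of Zfp994 at the adjusted threshold. Silencing genes numbered 0 to 1 with 1 array left out. The median log2 fold change of the members ranged from -0.05 to 0.14. With the offset the log2 fold change of Zfp874a was 2.32 and that of the second probe set of Zfp945 was 2.045. Fold changes over dim control values are not exact, and 3 mice per genotype limit all values.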
